A study of Bos taurus with 3 samples.

Results

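The genes described here were 7 genes that are linked to the cell's response to low oxygen: NDUFA4L2, ADM, LDHA, PGK1, ENO1, SLC2A1 and BNIP3. They were picked by symbol, each symbol named 1 row of the gene table, and together they were 7 of the 21861 genes counted. Their levels were compared between primary mesenchymal stromal cell (MSC) cultures of 3 tissues, and within each culture it was asked whether the genes were high in the same cells.

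When oxygen is scarce, the transcription factors HIF1A and EPAS1 are no longer broken down and bind the promoters of genes that adapt metabolism. Classical targets raise glucose uptake and the enzymes of glycolysis, divert pyruvate to lactate, lower the use of mitochondria and secrete vessel-active peptides. Fibroblast-like cells in culture also use glycolysis heavily when they divide, so several of these genes can be abundant without low oxygen. Neither cause was tested here.

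A single healthy Holstein-Frisian cow in first lactation, given as wild type (WT) and untreated, was the source of an adipose, a bone marrow and a peripheral blood culture. The medium of all 3 was DMEM of low glucose content to which 30% fetal bovine serum was added, cells were harvested when colonies had formed, and the labels name no oxygen level. Each tissue gave 1 single-cell library (10x Genomics 3' chemistry, version 3.1), so 3 libraries share 1 donor and no tissue has a replicate. No difference between tissues was tested, the intervals given are 95% intervals for counting error only, and tissue, culture and library cannot be told apart.

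The libraries held 99356868 (adipose), 106322567 (marrow) and 98016815 (blood) unique molecular identifiers (UMIs, 1 per captured transcript). Between 3192 and 9281 cells were kept per library, with a median of 14391, 9096 and 24884 UMIs per cell. The libraries shared 4 to 10 cell barcodes per pair and none across all 3. Levels are given for the stromal fraction, the cells left when clusters with markers of another cell type were set aside: 6049, 8301 and 3035 cells, 99.4%, 89.4% and 95.1% of those kept. In it the stromal markers COL1A1 stood at 2132, 3978 and 5980.5 CPM (UMIs of the gene scaled to a total of 1000000) and DCN at 377, 469.6 and 562 CPM. A macrophage-like class of 514 marrow and 157 blood cells served as a comparison, together with free RNA, the UMIs of barcodes too small to be cells.

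NDUFA4L2 had the widest range of the 7 genes between tissues and was a transcript of the blood culture: its level there was 20.04 times that of the adipose and 25.6 times that of the marrow culture. ADM was highest in the adipose culture, 3.59-fold over marrow and 2.60-fold over blood. The enzymes PGK1, ENO1 and LDHA differed by at most 1.44-fold. SLC2A1 and BNIP3 were low everywhere and highest in marrow. A gene was counted as apart between 2 libraries where its ratio was 2 or more, with 50 CPM or more in the higher of them.

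By that rule 1 of the 4 genes abundant enough was apart between adipose and marrow (ADM), against 6.08% of all 3158 genes compared. It was higher in adipose, as were 2.63% of those genes, and 0 were higher in marrow, against 3.45%. Between adipose and blood 2 of 5 were apart, against 5.04% of 3154 genes: ADM higher in adipose (1.27% of all genes) and NDUFA4L2 higher in blood (3.77%). Between marrow and blood 1 of 5 was apart, NDUFA4L2, against 7.38% of 3129 genes, of which 4.09% were higher in blood and 3.29% in marrow. NDUFA4L2 reached the 50 CPM minimum only through the blood library, so in its comparisons it had to differ. ADM was at 43.7 CPM in marrow and was compared with that library only through its level in adipose or blood. SLC2A1 and BNIP3 were under the minimum in every library and were never counted. All 3 pairs of libraries reuse the same libraries and are not independent.

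**Figure D1:**
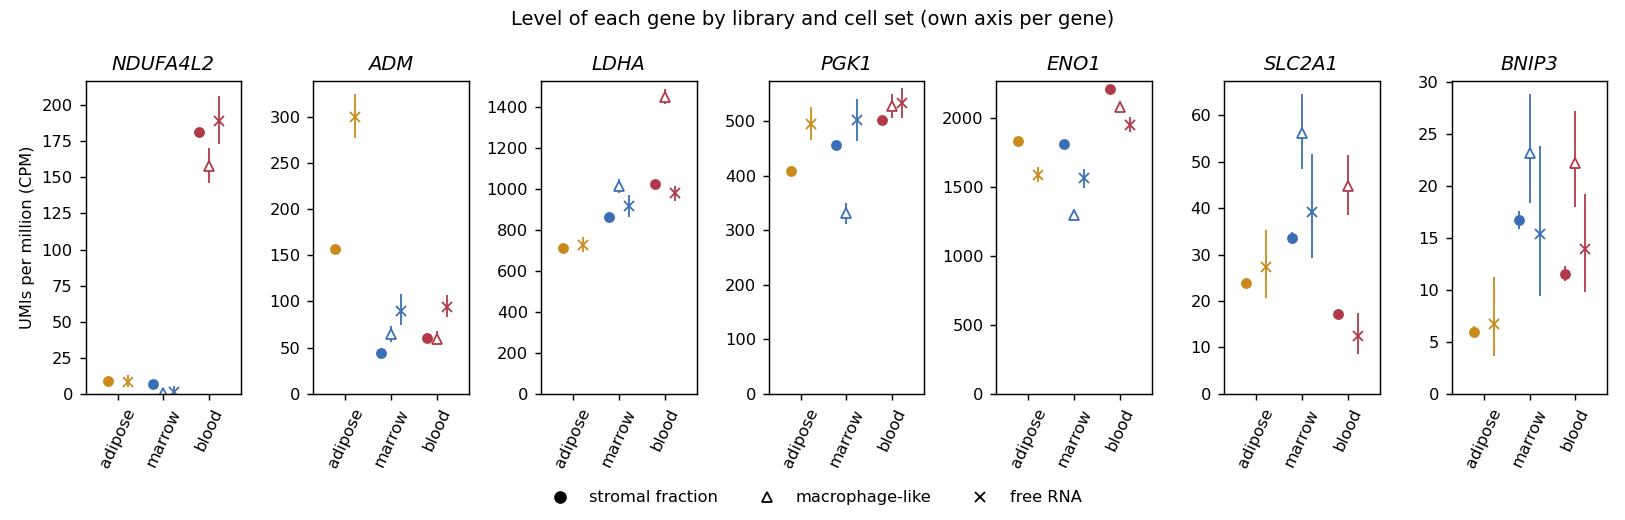
Each panel plots 1 gene on its own axis from 0, in CPM, in the adipose, marrow and blood libraries; filled circles are the stromal fraction, open triangles macrophage-like cells, crosses free RNA, and bars are 95% intervals for counting error. NDUFA4L2 is near 0 in 2 libraries and at 182 CPM in blood, whereas PGK1, ENO1 and LDHA sit at similar heights in all 3.

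SLC2A1 encodes GLUT1, the glucose transporter of most cell types and the entry point of the pathway. Its level was 23.8 CPM in adipose, 33.5 CPM in marrow and 17.1 CPM in blood. The marrow culture was thus 1.96-fold over blood (1.84 to 2.09) and 1.41-fold over adipose (1.33 to 1.49), and adipose was 1.39-fold over blood (1.30 to 1.48). With each cell thinned to 3000 UMIs, 6.79%, 9.22% and 4.98% of stromal cells had an SLC2A1 UMI, the same order as the CPM. Without thinning the shares were 27.05%, 26.5% and 32.3%, an order that follows the cells' depth. Macrophage-like cells held more of it, at 56.1 CPM in marrow and 44.7 CPM in blood. A finer clustering divided the blood class into 77 macrophage-like cells with 86.0 CPM and 80 cells of mixed markers with 34.4 CPM. SLC2A3, the high-affinity transporter GLUT3, was at 9.08, 0.937 and 2.61 CPM in the 3 stromal fractions and at 60.8 and 81.3 CPM in the macrophage-like cells of marrow and blood, and at 244.5 CPM in the 77 blood cells of the finer clustering.

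The payoff steps of glycolysis are run by PGK1, which makes ATP from 1,3-bisphosphoglycerate, and by ENO1, which forms phosphoenolpyruvate. PGK1 stood at 408.5, 456 and 502 CPM in adipose, marrow and blood. Marrow was 1.12-fold over adipose, and blood was 1.10-fold over marrow and 1.23-fold over adipose. ENO1 stood at 1834, 1809.6 and 2207 CPM. Adipose and marrow were within 1.01-fold for ENO1, and their order turned under 2 other scalings, from a log2 ratio of 0.02 to -0.06 and -0.05. Blood was 1.203-fold over adipose and 1.22-fold over marrow.

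LDHA encodes the lactate dehydrogenase subunit that turns pyruvate into lactate. It was at 710.2 CPM in adipose, 859.7 CPM in marrow and 1020.05 CPM in blood, 1.21-fold higher in marrow and 1.44-fold higher in blood than in adipose. LDHB, the subunit that favours the reverse reaction, had the opposite order at 735, 551 and 508 CPM. Of the paralogs of ENO1, ENO2 was found mainly in adipose at 24.1 CPM, against 2.98 in marrow and 3.12 in blood. ENO3 was at 3.73, 14.5 and 6.96 CPM.

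Almost every stromal cell held ENO1: after thinning to 3000 UMIs its share was 99.4%, 99.3% and 99.7%. The shares for LDHA were 85.9%, 89.8% and 93.7%, and those for PGK1 69.1%, 73.2% and 76.1%. Marrow macrophage-like cells had 1298 CPM of ENO1, 331 CPM of PGK1 and 1014 CPM of LDHA. Those of blood had 2077, 528 and 1448 CPM. The 77 blood cells that stayed macrophage-like in the finer clustering had 1809, 597 and 2034 CPM. Free RNA carried these enzymes at close to the cells' levels, with ENO1 at 1586, 1559.6 and 1948 CPM. CPM gives the make-up of free RNA and not its amount per barcode. In adipose, marrow and blood it held 2093914, 1299092 and 2657797 UMIs, spread over 59078, 62585 and 85237 barcodes. The median stromal cell held 14403, 9106 and 24923 UMIs. What free RNA adds to the shares of cells with a UMI was not tested.

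NDUFA4L2 encodes a small mitochondrial protein related to NDUFA4, a subunit of cytochrome c oxidase, and is a known HIF1A target that lowers mitochondrial respiration. Its level was 9.07 CPM in adipose (8.47 to 9.70), 7.09 CPM in marrow (6.55 to 7.67) and 182 CPM in blood (179 to 185). These are 856, 621 and 15434 UMIs. The blood culture stood alone, 20.04-fold over adipose (18.7 to 21.5) and 25.6-fold over marrow (23.6 to 27.8), while adipose was 1.28-fold over marrow (1.15 to 1.42). Among stromal cells with a share of S and G2M gene UMIs at or under their library's median, the levels were 11.7, 8.47 and 209.996 CPM, and among the more cycling cells 6.59, 5.81 and 157 CPM. The gap between blood and the other tissues was present in both, at 18.0-fold and 23.8-fold over adipose.

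After thinning to 3000 UMIs, 32.9% of blood stromal cells had an NDUFA4L2 UMI (1000 of 3035 cells, 31.3% to 34.7%), against 2.23% in adipose and 1.84% in marrow. Without thinning the shares were 65.7%, 7.44% and 5.05%. In marrow macrophage-like cells, with a median of 5895 UMIs against 9106 in the stromal fraction, 1 of 514 cells had one without thinning, 0.195% (0.00493% to 1.08%). After thinning 0 had, which by the limit of 3 counts allows up to 0.584% of cells with a UMI at that depth. In blood 21.7% of 157 thinned macrophage-like cells had one, and 47.8% without thinning. Their median depth was 21533 UMIs, against 24923 in the stromal fraction. Of the 77 cells that stayed macrophage-like in the finer clustering (median 9876 UMIs), 3.90% had a UMI after thinning, and of the 80 mixed cells 38.75% had. Blood free RNA held 189 CPM of NDUFA4L2, marrow free RNA 1.54 CPM and adipose free RNA 8.12 CPM.

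In the blood culture NDUFA4L2 was unevenly spread over cells. At 3000 UMIs per cell, 2035 of 3035 cells had none, the 90th percentile cell had 2, the 99th had 5 and the highest cell had 9 UMIs. The 10% of cells with most held 54.4% of its UMIs. Its variance over the mean was 1.98, above that of 97.9% of the 2868 genes compared, whose median was 1.04. In adipose and marrow the value was 1.38 in both, above that of 95.6% and 95.9% of genes. PGK1 by comparison had 1.10, 1.08 and 1.08.

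NDUFA4L2 also marks pericytes, the mural cells of small vessels, so mural markers were read beside it. RGS5 had no UMI in any of the 3 stromal fractions, KCNJ8, DES and MYH11 were at 0.0235 CPM or less, and ABCC9 was at 0.148 CPM or less. NOTCH3 was at 0.403, 0.731 and 0.612 CPM. CSPG4, which cultured stromal cells also express, was at 39.0, 61.0 and 42.7 CPM. ACTA2, a contractile gene of mural cells and of cultured fibroblasts that was not on this list, was at 237 CPM in adipose cluster 1 and 84.1 CPM in the other adipose cells. In the finer clustering of blood it was among the leading genes of a cluster (rank 4), at 1103 CPM, and was at 299.8 CPM in the other blood cells. The part of mural or contractile cells in the NDUFA4L2 levels was not tested.

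The paralog NDUFA4 was lowest in the blood culture, with 1013 CPM in adipose, 917 CPM in marrow and 829.7 CPM in blood. Of the other 10 genes listed around cytochrome c oxidase with at least 50 CPM (its subunits, NDUFA4 and the protease LONP1), 0 were apart in any pair, again near the shares of all genes. The median log2 ratio of the 11 with at least 10 CPM was 0.29 for adipose over blood and 0.27 for marrow over blood, beside 0.13 and 0.04 over all genes tested. COX4I2, the subunit isoform induced by low oxygen, was at 0.103 CPM or less.

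BNIP3 encodes an outer mitochondrial membrane receptor for mitophagy, the removal of mitochondria by autophagy. It was at 5.97 CPM in adipose (5.49 to 6.49), 16.7 CPM in marrow (15.9 to 17.6) and 11.5 CPM in blood (10.8 to 12.3). Marrow was 2.80-fold over adipose (2.53 to 3.09) and 1.45-fold over blood, and blood 1.93-fold over adipose, all at levels under the 50 CPM minimum. Thinned to 3000 UMIs, 1.69%, 4.98% and 3.69% of stromal cells had a UMI, against 8.95% of marrow and 6.37% of blood macrophage-like cells. The blood macrophage-like cells had 22.2 CPM, and the 77 of the finer clustering 45.8 CPM. The unthinned stromal shares were 8.12%, 14.5% and 23.7%. BNIP3L, its close relative, was at 54.7, 51.9 and 72.8 CPM.

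ADM encodes adrenomedullin, a secreted peptide that dilates vessels and guards the endothelial barrier. It stood at 157 CPM in adipose (155 to 160), 43.7 CPM in marrow (42.4 to 45.1) and 60.5 CPM in blood (58.8 to 62.2). Adipose was 3.59-fold over marrow (3.47 to 3.72) and 2.60-fold over blood (2.52 to 2.68), and blood was 1.38-fold over marrow (1.33 to 1.44). Thinned to 3000 UMIs, 32.5% of adipose, 12.02% of marrow and 15.8% of blood stromal cells had an ADM UMI, and without thinning 72.7%, 30.6% and 60.6%.

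ADM was present in other cell sets as well. Marrow macrophage-like cells had 64.8 CPM, with a UMI in 13.6% of thinned cells, which is not below the marrow stromal share, and the blood macrophage-like cells had 59.8 CPM. The 77 blood cells of the finer clustering had 81.5 CPM (63.9 to 102). Free RNA held more ADM than the cells in every library, at 300.4 CPM in adipose, 90.1 CPM in marrow and 94.4 CPM in blood. It had the same adipose-high order as the cells. What free RNA adds to the levels in cells was not tested. Its receptor needs the accessory protein RAMP2, which was at 96.4, 55.0 and 139 CPM and 2.53-fold over marrow in blood. The receptor CALCRL was at 1.94, 6.35 and 3.41 CPM.

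The 7 genes had no common order of the cultures, and neither had the regulators and other genes of the pathway. HIF1A was at 66.6, 159 and 124 CPM, 2.39-fold over adipose in marrow. EPAS1, which encodes HIF-2 alpha, was at 7.15 CPM in adipose, 63.8 CPM in marrow and 74.2 CPM in blood, 8.92-fold and 10.4-fold over adipose. Against adipose it reached the 50 CPM minimum only through the other library, so it had to differ. Both come from a list of 13 HIF regulators, of which 4 had at least 50 CPM. In marrow 2 of the 4 were at least 2-fold over adipose, against 3.45% of all genes. In blood 1 of 4 was, EPAS1, against 3.77%. Between marrow and blood 0 of 4 were apart, against 7.38%. Both were lowest in adipose, and EPAS1 was close in marrow and blood. These are RNA levels, and the HIF proteins were not measured. The part of either regulator in the levels of the 7 genes was not tested.

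A list of 36 other HIF target genes had 14 with at least 50 CPM. In marrow 2 of them were at least 2-fold over adipose, against 3.45% of all genes compared: VEGFA, the vessel growth factor, at 241 against 116 CPM, and DDIT4, an inhibitor of mTORC1, at 80.9 against 25.0 CPM. In blood 3 were over adipose, against 3.77% of all genes: DDIT4 at 60.0 CPM, ERO1A, an oxidase of the endoplasmic reticulum, at 109.6 against 40.6 CPM, and the repressor BHLHE40 at 100.2 against 43.1 CPM. ERO1A was also 2.18-fold over marrow in blood. In adipose DDIT4, ERO1A and BHLHE40 were under the 50 CPM minimum and reached it only through the other library. At 25.0 CPM in adipose DDIT4 had to differ, so these counts lean to genes high in marrow or blood. Of these 14 genes 0 were at least 2-fold higher in adipose than in either other culture, near the shares of all genes (2.63% over marrow and 1.27% over blood). The median log2 ratio of those with at least 10 CPM was -0.33 for adipose over marrow (24 genes) and -0.41 for adipose over blood (23 genes), beside 0.07 and 0.13 for all genes tested.

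Of the 10 other glycolysis enzymes with at least 50 CPM, 0 were apart in any pair of libraries, near the shares of all genes (6.08%, 5.04% and 7.38%). GAPDH was at 2143, 2286 and 2949 CPM, the same order as LDHA and PGK1. PDK3, a kinase that inhibits pyruvate dehydrogenase, was the 1 gene apart in its list. With at least 50 CPM the list had 5 genes between adipose and marrow and 4 between marrow and blood. Over all genes 3.45% and 3.29% were higher in marrow. PDK3 was at 103 CPM in marrow, 11.8-fold over adipose and 4.88-fold over blood. It reached 50 CPM only through marrow, so it had to differ. Of 10 further mitophagy genes with at least 50 CPM in adipose or blood, 2 were apart, both higher in blood as were 3.77% of all genes. They were GABARAPL1 (55.0 against 23.3 CPM) and the receptor OPTN (159.6 against 65.6 CPM). GABARAPL1 reached 50 CPM only through blood, so it had to differ.

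Within each culture the stromal cells formed clusters, and NDUFA4L2 varied most among them. The clusters were made from all variable genes of the same cells, so their levels are a description. Ranges are given over clusters of at least 50 cells, which leaves out adipose cluster 4 with 23 cells. In adipose NDUFA4L2 ranged from 4.90 CPM in cluster 3 (led by CCNB1, CDC20, KIF2C, REEP4 and KNSTRN, genes of mitosis) to 17.7 CPM in cluster 1 (ASPN, ACTA2, SERPINF1, CCN2 and IFIT1). In marrow it ranged from 2.75 CPM in cluster 3 (IGFBP3, RCAN2, SORBS2, H2BC15 and MKNK2) to 17.1 CPM in cluster 0 (IGFBP5, TINAGL1, UNC13D, LIPG and INHBA). Cluster 5 of marrow (CLU, SERPINF1, TMEM119, SORBS2 and DDAH2) had 15.1 CPM.

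In blood the lowest NDUFA4L2 level was 64.7 CPM in cluster 4 (LRRN4CL, ENSBTAG00000020097, TIMP3, ARF2 and COL11A1) and the highest 277 CPM in cluster 1 (ENSBTAG00000052665, ASPN, SFRP4, SST and EPAS1). Cluster 5, led by the cycling genes CDKN2D, TOP2A, UBE2C, NUSAP1 and HJURP, had 247 CPM. Even the lowest blood cluster was above the highest cluster of adipose or marrow. The ASPN cluster was the highest for NDUFA4L2 in both adipose and blood.

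**Figure D2:**
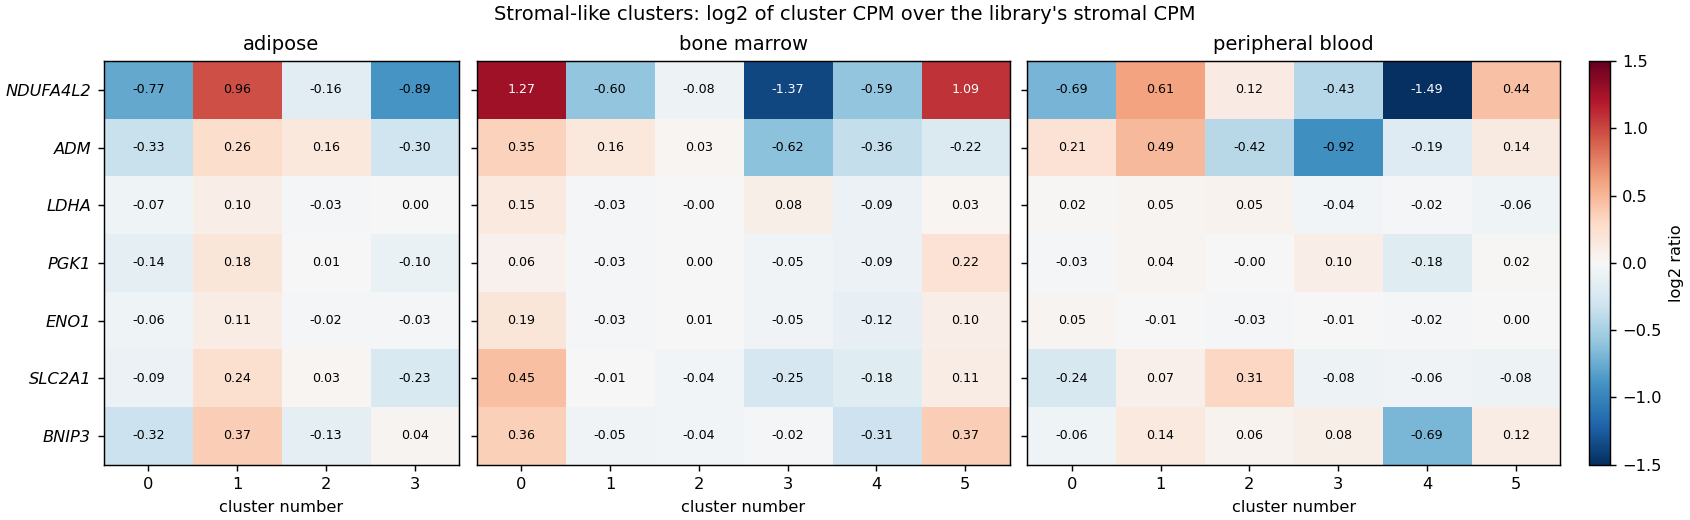
Rows are the 7 genes and columns the stromal-like clusters of at least 50 cells in each library; colour and number give the log2 ratio of the cluster's CPM to that of the library's stromal fraction. NDUFA4L2 spans the widest range in each library (3.61-fold, 6.23-fold and 4.28-fold), and ENO1 and LDHA are nearly flat.

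The other genes varied less between clusters. ADM ranged 1.51-fold in adipose, 1.95-fold in marrow and 2.65-fold in blood, where it ran from 32.0 CPM in cluster 3 (MEOX1, ALDH1A1, MDFI, IGFBP5 and EHD4) to 84.9 CPM in cluster 1. LDHA ranged at most 1.18-fold, PGK1 at most 1.25-fold and ENO1 at most 1.23-fold. SLC2A1 ranged 1.38-fold to 1.63-fold and BNIP3 1.61-fold to 1.78-fold. Of the 4 adipose clusters of that size, cluster 1 was highest for all 7 genes. The adipose cluster of 23 cells was above it for LDHA, at 872.9 CPM (772 to 983) against 759 CPM, and for PGK1, at 547.6 CPM (468 to 636) against 463 CPM, and was at 87.0 CPM of ADM. In blood, cluster 4 was lowest for NDUFA4L2, PGK1 and BNIP3.

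Whether the genes were high in the same cells was measured as Pearson's r over stromal cells of residuals that take out each cell's UMI total. All r values are descriptions without a p, since cells of 1 library share their culture, and sparse counts hold r near 0. Of the 21 pairs of the 7 genes, 12 in adipose, 10 in marrow and 15 in blood had an r of at least 0.1. Among 3178981 pairs of 2522 genes with at least 50 CPM in every library, 2.47%, 1.48% and 7.74% had. The median r of the 21 pairs was 0.12, 0.10 and 0.19, beside 0.00, 0.00 and 0.01 over all pairs.

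The 15 pairs without ADM held all of those counted: their r ran from 0.08 to 0.37 in adipose, from 0.05 to 0.33 in marrow and from 0.15 to 0.47 in blood. The pair of LDHA and ENO1 was the highest in each library, with r of 0.37, 0.33 and 0.47. PGK1 had an r of 0.28, 0.22 and 0.41 with ENO1. NDUFA4L2 joined the enzymes, with an r with ENO1 of 0.22 in adipose, 0.13 in marrow and 0.33 in blood, although its level was low in the first 2.

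The pairs with ADM were lower in adipose and blood. They ran from -0.01 to 0.04 in adipose, from 0.03 to 0.07 in marrow and from -0.03 to 0.03 in blood, and 0 of them reached 0.1. In marrow they overlapped the pairs without ADM, and those with LDHA (0.06), ENO1 (0.07) and SLC2A1 (0.07) were above the 95th percentile of all gene pairs there (0.06). With NDUFA4L2 its r was 0.04, 0.03 and -0.03.

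**Figure D3:**
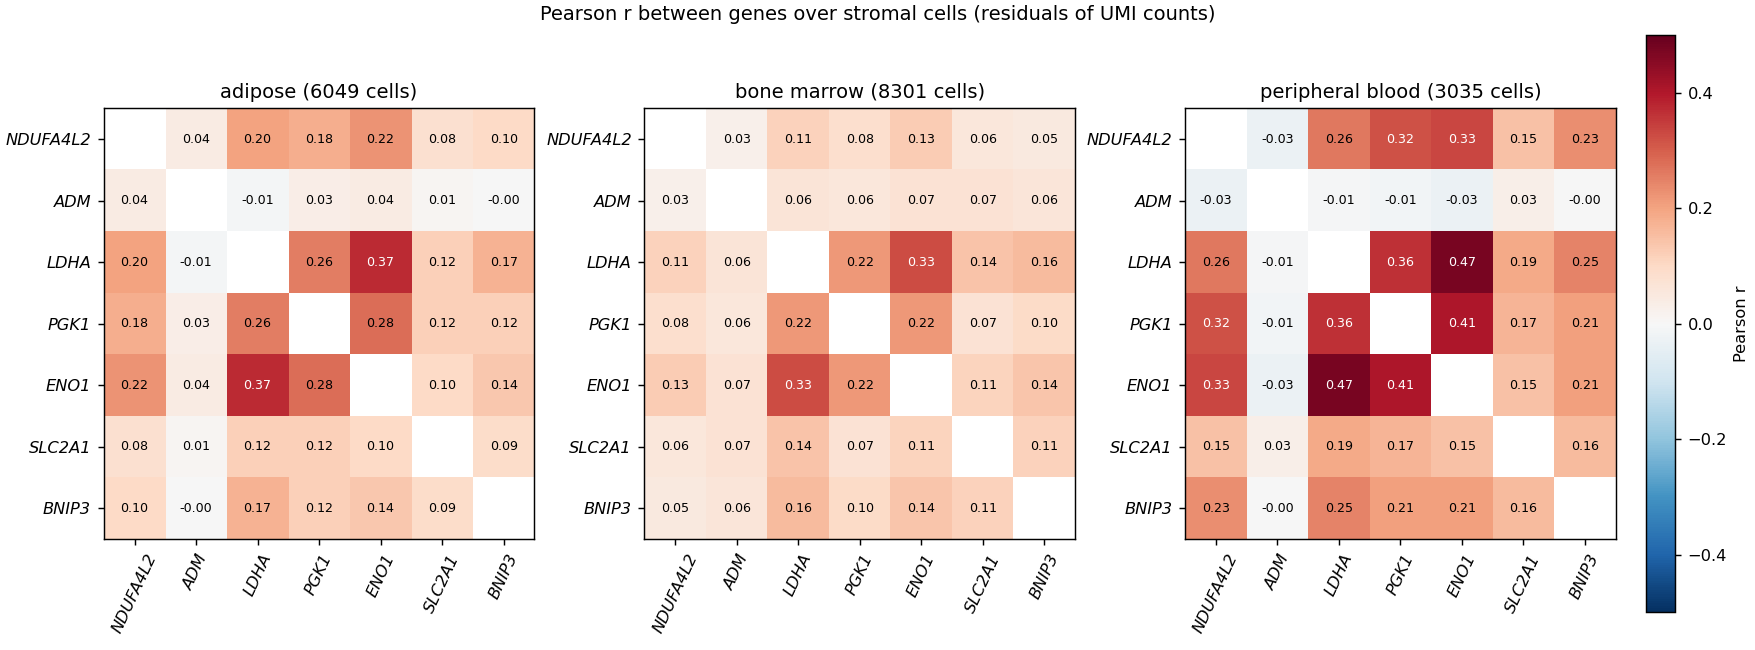
Each matrix gives Pearson's r between 2 of the 7 genes over the stromal cells of 1 library, from residuals of UMI counts. The row and column of ADM stay between -0.03 and 0.07, whereas the LDHA, PGK1 and ENO1 block reaches 0.47 in blood.

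The libraries differed in depth, with a median of 14403, 9106 and 24923 UMIs per stromal cell. With every cell thinned to 3000 UMIs and r taken on log values, 1, 1 and 4 pairs reached 0.1, beside 0.122%, 0.117% and 0.254% of all gene pairs. The median r of the 15 pairs without ADM was then 0.04, 0.05 and 0.07, and that of all pairs 0.00. Of those 15, 10, 12 and 13 were above the 95th percentile of all gene pairs in their library. Of the 6 pairs with ADM, 0, 1 and 0 were. In blood the 4 pairs were LDHA with ENO1 and NDUFA4L2 with LDHA, PGK1 and ENO1. In adipose and marrow the pair was LDHA with ENO1.

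Cells were next ranked by the mean of 6 of the genes, and the level of the gene left out was read in the lowest and the highest quintile of cells. NDUFA4L2 was 1.98 CPM in the lowest and 26.2 CPM in the highest adipose quintile, 13.3-fold (9.61 to 18.8). In marrow the values were 1.54 and 17.6 CPM, 11.4-fold (7.74 to 17.5), and in blood 87.5 and 332 CPM, 3.80-fold (3.59 to 4.02). The lowest blood quintile was above the highest adipose quintile. The fold was larger in the cultures where the gene was rare, and the difference in CPM was larger in blood. With counts thinned to 3000 UMIs per cell, the folds were 5.09 in adipose, 8.23 in marrow and 2.26 in blood.

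BNIP3 was 4.48-fold, 3.87-fold and 5.63-fold higher in the highest quintile, and SLC2A1 1.83-fold, 2.43-fold and 2.62-fold. The abundant enzymes spread less: LDHA 1.46-fold, 1.56-fold and 1.56-fold, PGK1 1.48-fold, 1.41-fold and 1.54-fold, and ENO1 1.31-fold, 1.32-fold and 1.35-fold. ADM was 1.02-fold in adipose (0.97 to 1.07), 1.63-fold in marrow (1.47 to 1.80) and 0.949-fold in blood (0.87 to 1.04). In marrow ADM went from 34.8 to 56.7 CPM, so its weak relation to the other genes was found in that culture.

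At least 1.5-fold was reached by 3 of the 7 genes in adipose, 5 in marrow and 5 in blood. Of all other genes with at least 50 CPM, ranked by the mean of all 7, 1.12%, 0.383% and 1.29% reached it. Those genes were all above 50 CPM, whereas NDUFA4L2, SLC2A1 and BNIP3 were not in adipose. Of the members with at least 50 CPM in the library, 0 of 4 in adipose, 1 of 3 in marrow (LDHA) and 3 of 5 in blood (NDUFA4L2, LDHA and PGK1) reached 1.5-fold. The quintiles were alike in depth: for NDUFA4L2 the median was 15405 UMIs in the lowest and 15020.0 in the highest adipose quintile, and 25843 and 24616 in blood. In the highest quintile by the mean of all 7 genes, cells had a somewhat smaller median share of S and G2M gene UMIs than in the lowest. It was 0.629% against 0.915% in blood, 0.988% against 1.10% in adipose and 0.855% against 0.906% in marrow. Among the less cycling cells alone the NDUFA4L2 fold was 14.8 in adipose, 11.2 in marrow and 3.70 in blood, and 3, 4 and 5 of the 7 genes reached 1.5-fold, with ADM below it in marrow at 1.45-fold.

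**Figure D4:**
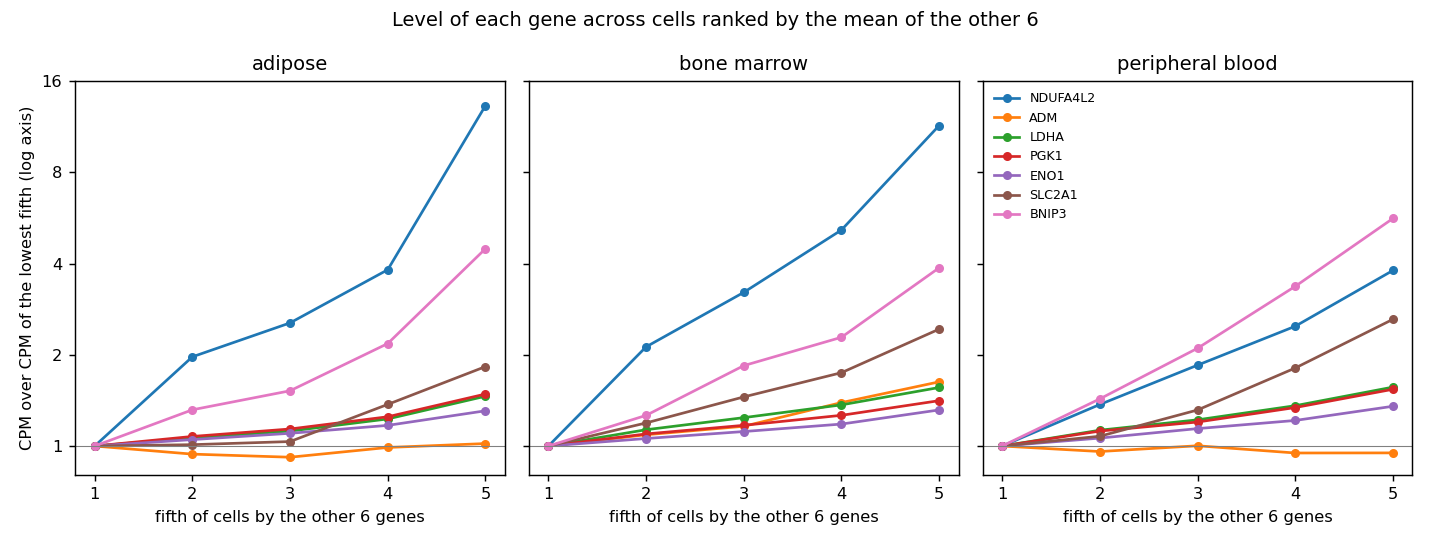
The level of each gene relative to the lowest quintile (log axis) is plotted over the 5 quintiles of stromal cells ranked by the mean of the other 6 genes, with 1 line per gene. NDUFA4L2 reaches 13.3-fold in adipose and 3.80-fold in blood, where BNIP3 reaches 5.63-fold, and ADM is flat except in marrow, where it reaches 1.63-fold.

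The genes most like each of the 7 were sought among 2305 genes by their lowest r over the 3 libraries. GAPDH was first for NDUFA4L2 (0.26 in adipose, 0.15 in marrow and 0.50 in blood), followed by ENO1, LDHA, ALDOA and MIF. For LDHA they were ENO1, GAPDH, ALDOA, TPI1 and PGK1, with a lowest r of 0.33 for the first. GAPDH was also first for PGK1, ahead of ENO1, LDHA, ALDOA and FTL, and for ENO1, ahead of LDHA, ALDOA, PRDX1 and TPI1.

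VEGFA was the gene most like SLC2A1 (0.14, 0.14 and 0.19), followed by LDHA, COTL1, GAPDH and ENO1. For BNIP3 they were LDHA (0.17, 0.16 and 0.25), ENO1, GAPDH, HIF1A and PLIN2, which coats lipid droplets. For ADM they were CCDC80, IER3, FGF7, THBS1 and TNFRSF12A, none of them a glycolysis enzyme. Their lowest r lay between 0.06 and 0.08, and THBS1 had 0.22 in adipose, 0.06 in marrow and 0.22 in blood.

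The wider pathway was read through its r with the mean of the 7 genes. Of 10 other glycolysis enzymes with at least 50 CPM in all libraries, 7, 8 and 8 had an r of at least 0.1, beside 7.23%, 2.26% and 6.51% of 2519 other genes. Their median r was 0.22, 0.18 and 0.35. GAPDH was highest at 0.45, 0.41 and 0.56, ahead of ALDOA at 0.38, 0.30 and 0.49. PFKP was at -0.02, 0.01 and 0.00, and LDHB was below 0 in all 3 libraries, at -0.04, -0.05 and -0.12.

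Of 11 other HIF targets, 8, 9 and 10 reached 0.1, beside 7.23%, 2.26% and 6.51% of all other genes. Their median was 0.15, 0.14 and 0.28, with 0 below 0. NDRG1, a stress-response gene, was at 0.15, 0.21 and 0.36, VEGFA at 0.15, 0.22 and 0.30, and BNIP3L at 0.20, 0.15 and 0.27. The regulators HIF1A (0.16, 0.16 and 0.28) and EGLN1, the prolyl hydroxylase that marks HIF1A for removal (0.08, 0.12 and 0.25), had like values. EPAS1 had 0.03 in marrow and 0.20 in blood. The median was -0.09, -0.04 and -0.08 for 17 S phase genes and -0.05, -0.02 and -0.09 for 33 G2M genes. Over all other genes it was -0.01, -0.01 and -0.02. In both lists 0 genes reached 0.1, near the shares of all other genes. Around cytochrome c oxidase 3, 0 and 1 of 10 genes reached 0.1, beside the same shares of all other genes.

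**Figure D5:**
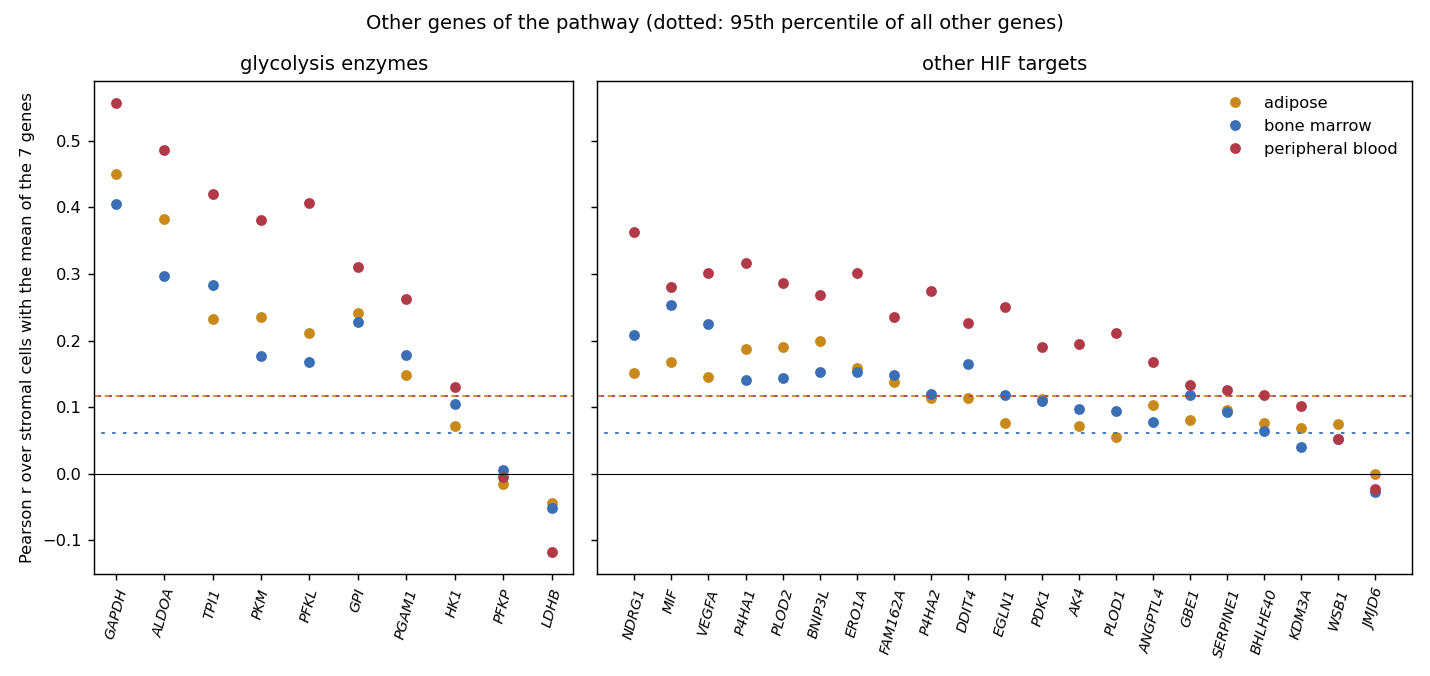
Points give Pearson's r over stromal cells between 1 gene and the mean of the 7 genes in each library, for other glycolysis enzymes (left) and other HIF targets (right) with at least 10 CPM in all 3; dotted lines are the 95th percentile over all other genes (0.12, 0.06 and 0.12). GAPDH and ALDOA lead the enzymes, the HIF targets are led by BNIP3L in adipose (0.20), MIF in marrow (0.25) and NDRG1 in blood (0.36), and LDHB is below 0 in all 3 libraries.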

How the data were processed

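The deposited matrices hold counts, whole numbers of UMIs per gene and barcode that the authors made with Cell Ranger, on the genome build ARS-UCD1.2. Build and version (6.1.1) are taken from the submitters' processing notes, whereas version 4 stands in the file headers. The annotation's release was not given in the sources used here. Levels in CPM were computed from those counts.

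Barcodes were kept as cells above the 99th percentile of the 3000 largest totals divided by 10, with at least 500 genes and at most 20% mitochondrial UMIs. No doublet caller was run, and doublets were not removed. Free RNA was summed over barcodes of 10 to 100 UMIs. Clusters (scanpy 1.11.5, 2000 variable genes, 30 components, 15 neighbours, Leiden resolution 0.5) were set aside where at least 3 markers of another class were among their 50 leading genes, and were called mixed where stromal markers stayed above 0.5 of the library's level. These names were rebuilt here. Summed UMIs gave CPM, with exact binomial (Clopper-Pearson) intervals for levels, ratios and shares. They cover counting error only. A count of 0 was given a limit of 3 counts over the cells.

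Pearson's r was taken over cells on analytic Pearson residuals (theta 100). With 1 library per tissue no test was run. edgeR 4.0.16 gave TMM factors only, as an alternative scaling. On simulated counts for adipose and marrow over 21861 genes, 100 of 100 genes set 3-fold apart and 0 of 100 set 1.5-fold apart were called. Of 1403 unchanged genes 0 were. In each library 21 of 21 co-varying and 0 of 21 independent simulated pairs were called. The co-varying pairs had a median r of 0.51 in adipose, 0.34 in marrow and 0.59 in blood. That of the 21 pairs of the 7 genes was 0.12, 0.10 and 0.19. Recovery at the levels and r of the 7 genes was not tested.

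Genes named were the 7, list members apart in any pair, the paralogs NDUFA4, ENO2, ENO3, LDHB, SLC2A3 and BNIP3L, per gene the 5 most alike, and the 5 leading genes of clusters described. COL1A1, DCN, CALCRL, COX4I2, GAPDH, PFKP, the mural markers, NDRG1, EGLN1 and other genes named by level or r were added after values were seen. The 7 genes and all lists were chosen with earlier results of these data known. No sequence or coordinate is given.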

Additional observations from a re-analysis of the deposited data

How the results depend on the processing

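The counts of genes apart were the same under other cell sets, clusterings, cell calling, TMM or median-of-ratios scaling (which moved all ratios by at most 0.07 on the log2 scale) and means over cells; with a minimum of 10 CPM or none, BNIP3 joined ADM and the adipose and marrow count was 2 in both. With cells thinned to 3000 UMIs and r taken on log values, a setting that changes depth and scale together, 1 pair of genes in adipose, 1 in marrow and 4 in blood had an r of at least 0.1. With deciles of cells in place of quintiles, 5 genes in adipose were at least 1.5-fold higher in the highest group. With thinned counts 3 genes in marrow and 3 in blood were, the enzymes falling below 1.5-fold and ADM being lost in marrow. No value called apart turned its sign under these settings. Of the single values under an alternative, 128 of the log2 ratios stayed within their counting interval and 40 moved beyond it, for r 304 and 137, and for quintile folds 72 and 54. Shares of cells moved in all 42 cases, since they depend on depth.

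No paired analysis was possible because each tissue has 1 library, and for the same reason no replicate was left out. Depth limited SLC2A1 and BNIP3 most, with NDUFA4L2 in adipose and marrow: each had under 35 CPM, most cells held none, and their r and folds rest on few UMIs per cell.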

Other observations

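The genes with the lowest r with the mean of the 7 over cells differed in part between libraries. HSP90AB1, a chaperone, was among the 5 lowest in each, with an r of -0.24 in adipose, -0.17 in marrow and -0.25 in blood. PA2G4, a ribosome assembly factor, was among the 5 lowest in adipose (-0.23) and marrow (-0.16), and was rank 7 in blood (-0.23). In blood the lowest were ATP5MC3 (-0.27) and ATP5MC1 (-0.26), subunits of the mitochondrial ATP synthase, followed by C1QBP, a mitochondrial matrix protein (-0.25). C1QBP was also low in adipose (-0.22) and marrow (-0.12). These genes were picked for their rank among 2519 genes, so the values are descriptions.

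Of the amino-acid and stress genes of the ATF4 response, 5 had at least 50 CPM in all libraries. An r of 0.1 with the mean of the 7 genes was reached by 5, 0 and 3 of them in adipose, marrow and blood. Of 2519 other genes 7.23%, 2.26% and 6.51% reached it. PHGDH, the first enzyme of serine synthesis from a glycolysis intermediate, had 0.14, 0.03 and 0.19. The lactate exporter SLC16A3 was at 2.72, 21.5 and 16.5 CPM, and its r was 0.25 in marrow and 0.34 in blood. The quintile levels of 2 further HIF targets were 60.6 and 122 CPM for DDIT4 in marrow, 38.2 and 94.6 CPM for DDIT4 in blood, and 72.8 and 159 CPM for ERO1A in blood.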
